A study of Rattus norvegicus with 7 samples.

Results

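Potassium channel genes were taken as the rat genes whose symbol begins with Kcn, except 1 gene of the Kcnj group that is not analysed here, and they cover the pore-forming subunits of every potassium channel class and the accessory subunits that bind them. The array carried 121 probes of 90 such genes, and 103 probes of 79 genes passed the detection filter (well above background on 3 or more of the 7 arrays). These 79 genes, of 19991 genes and unnamed probes tested in all, are described here. The 11 genes that were not kept were Kcna5, Kcna10, Kcne1, Kcnh5, Kcnj1, Kcnj2, Kcnj15, Kcnk18, Kcnmb1, Kcnn4 and Kcnt2. Of the 79, 70 were well above background on all 7 arrays, and 9 on some arrays only (Kcna3, Kcne3, Kcnf1, Kcng3, Kcnh8, Kcnj4, Kcnrg, Kcns1 and Kcns3).

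RNA came from the cerebellum of female Wistar rat pups aged 21 days, on 1-colour arrays. Dams of the CTRL group (4 pups) ate a standard diet, and dams of the MDD group (methyl donor deficiency, 3 pups) ate a diet short of folate, of vitamin B12 and of choline, the nutrients that supply methyl groups. Feeding began 1 month before pregnancy and ended at weaning on day 21, so the pups met the diets through their dams. The labels call the samples biological replicates and name no dam or litter, and the tests therefore rest on the spread among pups, with that among litters unknown.

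Potassium channels let potassium leave the cell, which holds the resting potential, ends each action potential and sets how fast a neuron can fire again. Cerebellar neurons depend on particular classes. Purkinje cells and granule cells fire at high rates with fast delayed rectifiers of the Kcnc group, granule cells carry transient currents through Kcnd channels and a standing leak through Kcnk channels, and basket cell terminals and axons are rich in Kcna channels.

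All arrays shared 1 slide and 1 scan time, the share of spots detected above background ran from 74.1% to 79.6%, and saturation was found in 0 spots. The granule and Purkinje cell markers were detected (12 of 12 and 9 of 9 on the array), whereas the forebrain genes Emx2, Tbr1 and Rasgrf2 were not, although Neurod6 and Lamp5 were. In the limma fit 4118 of the 19991 tested had a Benjamini-Hochberg adjusted p under 0.05 (20.6%), with 2526 higher in MDD (12.6%) and 1592 lower (7.96%). Signals below are log2 processed intensities relative to the 75th percentile of their array, given in the order of the replicate numbers, and changes are MDD minus CTRL. A signal depends on its probe as well as on the RNA, so levels of different genes are not compared.

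The promoters of 4 genes from the account below are shown first, since the diet withholds the donors of the methyl group that DNA carries at cytosines followed by guanine. They are those of Kcnk13, Kcnd2 and Kcnc1, which passed the test, and of Kcna4, which also passed and whose window is the poorest in CG. Each is the RefSeq window of 300 bases around the transcription start on the rat assembly GRCr8, read 5′ to 3′ on the gene's own strand, and the capitals mark every CG. Kcnk13 lies at chr6:124971559-124971858 on the + strand with 33 CG, Kcnd2 at chr4:50742235-50742534 on the + strand with 23, Kcnc1 at chr1:106038997-106039296 on the + strand with 36, and Kcna4 at chr3:114215086-114215385 on the + strand with 1.
Kcnk13: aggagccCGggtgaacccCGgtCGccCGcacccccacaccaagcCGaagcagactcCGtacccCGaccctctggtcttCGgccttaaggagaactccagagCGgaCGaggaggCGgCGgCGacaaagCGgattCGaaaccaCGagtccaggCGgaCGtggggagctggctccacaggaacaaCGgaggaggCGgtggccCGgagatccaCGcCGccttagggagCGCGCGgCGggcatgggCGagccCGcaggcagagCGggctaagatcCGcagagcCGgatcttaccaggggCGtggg
Kcnd2: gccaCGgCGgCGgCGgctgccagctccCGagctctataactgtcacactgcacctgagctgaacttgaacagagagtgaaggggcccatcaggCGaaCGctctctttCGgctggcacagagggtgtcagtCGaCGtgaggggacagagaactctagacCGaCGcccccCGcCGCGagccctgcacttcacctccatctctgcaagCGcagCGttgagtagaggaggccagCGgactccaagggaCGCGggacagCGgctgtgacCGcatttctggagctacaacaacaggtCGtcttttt
Kcnc1: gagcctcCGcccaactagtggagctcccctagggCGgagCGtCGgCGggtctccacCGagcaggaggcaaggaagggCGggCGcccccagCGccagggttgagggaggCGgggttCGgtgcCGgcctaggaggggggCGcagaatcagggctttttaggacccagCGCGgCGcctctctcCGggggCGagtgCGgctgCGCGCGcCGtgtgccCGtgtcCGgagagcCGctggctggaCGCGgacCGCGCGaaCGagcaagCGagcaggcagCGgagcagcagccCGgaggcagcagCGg
Kcna4: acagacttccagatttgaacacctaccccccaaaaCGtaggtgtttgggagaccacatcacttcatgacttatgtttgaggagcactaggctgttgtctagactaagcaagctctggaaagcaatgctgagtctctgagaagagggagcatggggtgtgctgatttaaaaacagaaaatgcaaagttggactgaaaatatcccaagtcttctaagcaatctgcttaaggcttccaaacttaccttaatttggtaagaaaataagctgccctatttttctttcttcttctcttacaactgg
DNA methylation was not measured in these samples, and the windows are a description only. The RefSeq table held a window for 51 of the 79 genes, 10 of the 10 that passed among them. Their median was 15 CG (quartiles 8 and 27), against 7 (quartiles 3 and 19) over all 33469 windows of the table. Only the first window of each of the 51 genes was counted. The table as a whole holds further starts of a gene and is not limited to genes detected here, so it is no matched background. Genes that were lower in MDD had a median of 23 CG, from 1 in Kcna4 to 48 in Kcnd3. Those that were higher had 15 to 35, and those that did not pass had a median of 13. The letters GGGCGG, which contain a CG, were found on either strand in 28 of the 51 (54.9%) and in 33.1% of all windows. TATAAA, with no letters in common with a CG, was found on either strand in 0 of the 51 and in 14.2% of all windows.

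The comparison of MDD with CTRL asked which potassium channel transcripts a lack of methyl donors in early life changed in the cerebellum. Of the 79 genes, 7 fell (8.9%, against 7.96% of all tested) and 3 rose (3.8%, against 12.6%). The genes that fell were Kcnc1, Kcnd2, Kcnd3 and Kcna4 among voltage-gated channels, the inward rectifier Kcnj6, the two-pore channel Kcnk16 and the sodium-activated channel Kcnt1. The genes that rose were the two-pore channel Kcnk13, the modifier Kcng2 and the accessory subunit Kcne5. Changes that passed ran from 1.32-fold lower for Kcnd3 to 1.87-fold lower for Kcnj6 and from 1.48-fold to 1.67-fold higher. The share of genes that fell was close to the background, and nothing is read from it about the family. In RNA from whole tissue, fewer cells of a type and less RNA per cell cannot be told apart, nor can the reverse.

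Over all 79 genes the mean was lower in MDD for 49 (62.0%, against 52.7% of all tested) and the median log2 change was -0.08, against -0.03 for all tested. The detection filter could be met by the arrays of 1 group alone. Of the 9 genes detected on some arrays only, Kcnj4, Kcns1 and Kcns3 had a higher mean in MDD and the others a lower one. Over the 70 genes well above background on all 7 arrays, 43 means were lower (9413 of 18253 tested) and the median was -0.08. With the authors' deposited table of normalized intensities the family median was -0.004, and 41 genes were lower. The groups did not overlap for 11 genes that were lower in MDD (13.9%, against 16.7%) and for 5 that were higher (6.3%, against 19.9%). At an unadjusted p under 0.05, 18 of the 79 passed (22.8%, against 39.0% of all tested). All 10 genes that passed were well above background on all 7 arrays.

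**Figure D1:**
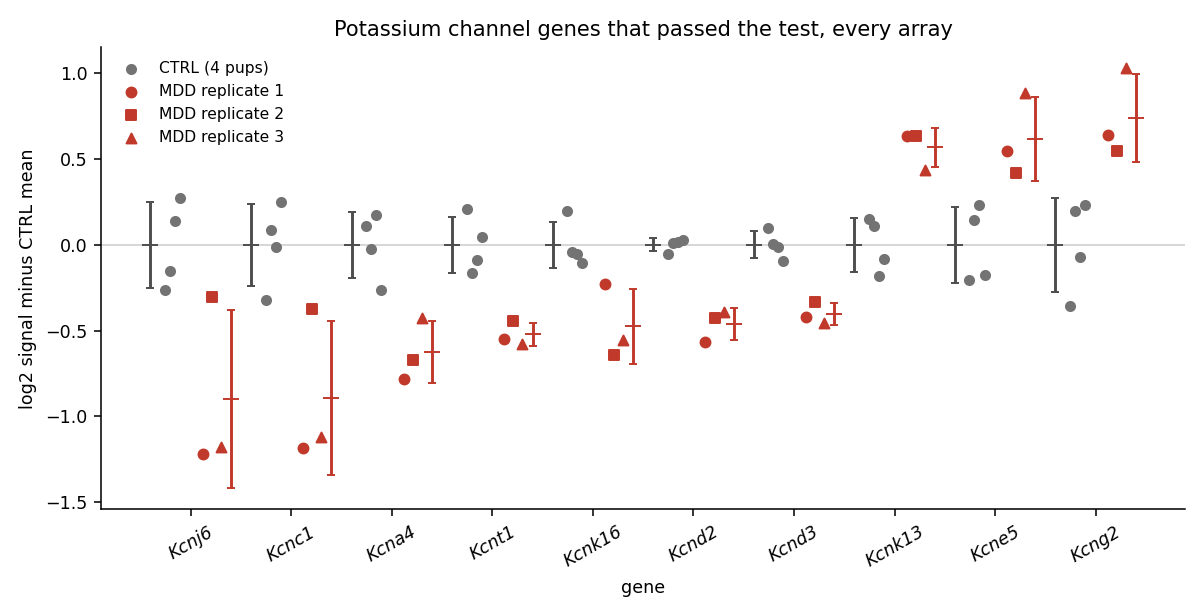
Log2 signal of the 10 potassium channel genes that passed the test, each set to its CTRL mean of 0 (vertical axis, log2), with genes on the horizontal axis. Grey points are the 4 CTRL pups and red points the 3 MDD pups (circle, square and triangle for replicates 1, 2 and 3), and the bars are the group mean ± SD. No MDD point lies within the CTRL range, and MDD replicate 2 is the MDD point nearest to CTRL for 4 of the 7 lower genes, Kcnj6 and Kcnc1 among them.

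The voltage-gated group, whose pores open on depolarization, had 36 genes, of which 4 fell, 1 rose and 31 did not pass. Beside this count and those of the groups below stand the shares of all tested, 7.96% lower and 12.6% higher. Nothing is read about a group from counts this small. Its median was -0.17 (-0.11 over the 30 genes well above background on all 7 arrays), and 24 of 36 means were lower in MDD. With normexp background correction, which adds an offset and shrinks the changes of dim probes, the median was -0.003 and 18 means lay on either side, and with the authors' deposited table the median was -0.03. Among its subgroups of 3 or more genes, those with every mean lower were Kcnc (4 of 4, median -0.59) and Kcnd (3 of 3, median -0.40). Of all tested, 52.7% of means were lower. These signs held under each scaling, except that Kcnc4 changed by 0.04 with trends removed, a setting that subtracts from each array its dependence on gene length and mean signal.

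Kcnc1 encodes a fast delayed rectifier that lets cerebellar neurons fire at high rates. Its signals were 1.35, 1.75, 1.66 and 1.92 in CTRL and 0.49, 1.29 and 0.55 in MDD. All MDD pups were below all CTRL pups, but replicate 2 was only just below the lowest of them, while replicates 1 and 3 were well below. Kcnc1 was 1.86-fold lower (log2 -0.89, SE 0.22, adjusted p = 0.0297), from 1.67 ± 0.24 (SD, n = 4) to 0.78 ± 0.45 (SD, n = 3). Its relatives Kcnc2 and Kcnc4 changed by -0.28 (adjusted p = 0.169) and -0.11 (adjusted p = 0.570) and did not pass.

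Kcnd2 encodes the pore of the transient A-type current of granule cells, which delays the first spike. Its CTRL signals were tightly grouped at 2.11, 2.17, 2.18 and 2.19, and its MDD signals were 1.59, 1.74 and 1.77. The gap between the groups was wider than either group's range. Kcnd2 was 1.38-fold lower (log2 -0.46, SE 0.11, adjusted p = 0.0252), and its second probe, at 0.89, 1.07, 1.08 and 1.20 in CTRL and -0.01, 0.41 and 0.77 in MDD, also passed (log2 -0.67, adjusted p = 0.0385).

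Kcnd3, another A-type subunit, gave -1.73, -1.82, -1.84 and -1.92 in CTRL and -2.25, -2.16 and -2.28 in MDD. Both groups were narrow and did not overlap. The change was -0.40 (SE 0.11, adjusted p = 0.0377), 1.32-fold lower, and all 4 of its detected probes were lower, from -0.28 to -0.62. Its call was weak, for it held under 1 of 7 other ways of processing, and the change was -0.12 (adjusted p = 0.406) with the trends removed. Kcnd1 changed by -0.23 (adjusted p = 0.243).

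Of the Kcna subgroup, whose channels open at low voltage and restrain firing in axons and terminals, 1 of 6 detected genes fell. Kcna4, a subunit that gives inactivating currents, was at -4.98, -5.12, -4.92 and -5.36 in CTRL and -5.88, -5.76 and -5.52 in MDD, a change of -0.63 (SE 0.15, adjusted p = 0.0266). All MDD values were below the CTRL values, but the probe was dim, with processed intensities of 25.1 to 61.6. Its change was -0.18 (adjusted p = 0.491) with normexp background correction and -0.24 (adjusted p = 0.104) with the authors' deposited table.

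Kcna1, the subunit of basket cell terminals whose mutations cause episodic ataxia, had signals of 3.26, 3.30, 3.43 and 3.55 in CTRL and 2.75, 3.31 and 2.65 in MDD. MDD replicates 1 and 3 were below every CTRL pup, and replicate 2 lay within the CTRL range. The change of -0.48 (SE 0.18, adjusted p = 0.0855) did not pass, whereas it was -0.69 (adjusted p = 0.0154) without MDD replicate 2. Kcna1 was also past the threshold with quantile normalization (-0.75, adjusted p = 0.0337), with the authors' deposited table (-0.74, adjusted p = 0.0221) and with the trends removed (-0.81, adjusted p = 0.0384). Its frequent partner Kcna2 changed by -0.21 (adjusted p = 0.348), with MDD replicate 2 again inside the CTRL range.

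Kcng2, the voltage-gated gene that rose, encodes a silent subunit that forms no channel alone and alters Kcnb channels. CTRL pups had -2.98, -2.43, -2.70 and -2.39, and MDD pups -1.99, -2.08 and -1.60. Every MDD value was above every CTRL value. Kcng2 was 1.67-fold higher (log2 0.74, SE 0.19, adjusted p = 0.0304). Kcnb2, one of the channels of the kind it modifies, changed by -0.25 (adjusted p = 0.385) and did not pass.

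The Kcnq genes, whose slow current limits repetitive firing, and the Kcnh, Kcnf, Kcns and Kcnv genes held no gene that passed (smallest adjusted p = 0.175 for Kcnq and 0.227 for Kcnh). Kcnq3 changed by -0.70 (SE 0.38, adjusted p = 0.205), with signals of -0.38, -0.38, -0.96 and -0.20 in CTRL and -0.79, -0.54 and -2.20 in MDD. MDD replicate 3 was far lower than the rest and the groups overlapped. Without it Kcnq3 changed by -0.19 (adjusted p = 0.577). A second, dimmer Kcnq3 probe gave -0.42 (limma over probes, adjusted p = 0.105). On that probe MDD replicate 1 was lowest (-4.78), replicate 3 was at -4.44 and replicate 2 (-4.11) lay within the CTRL range.

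**Figure D2:**
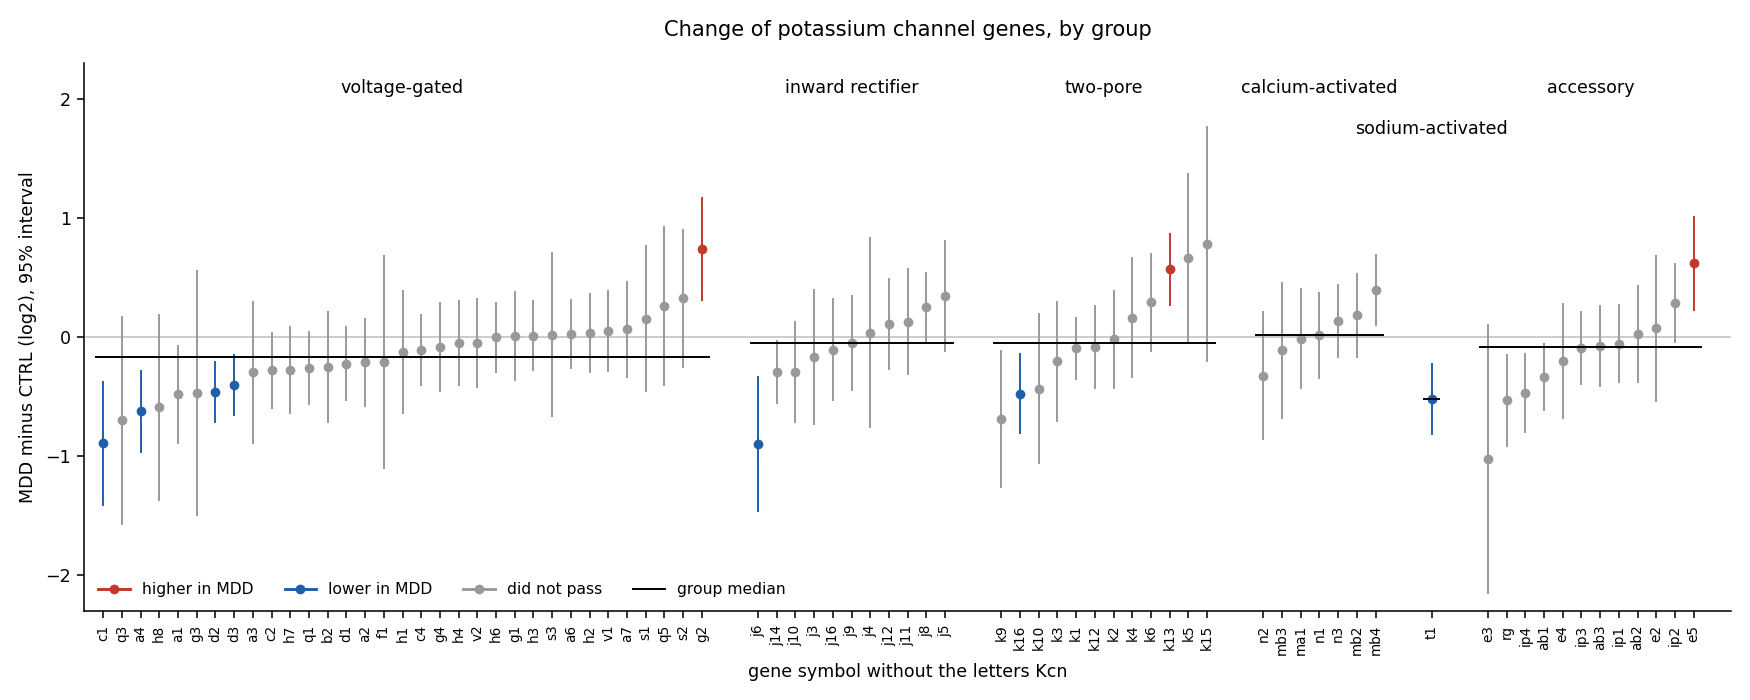
MDD minus CTRL (log2, vertical axis) for the potassium channel genes described here, ordered by change within each group along the horizontal axis; points are the limma estimates, vertical lines their 95% intervals and black lines the medians over all genes of a group. Blue marks the 7 genes that fell, red the 3 that rose and grey those that did not pass, and the voltage-gated median (-0.17) is below that of the inward rectifiers (-0.05).

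Inward rectifiers (Kcnj), which pass current best near the resting potential, had 11 genes, of which 1 fell, 0 rose and 10 did not pass. The median change was -0.05, and it was 0.05 with normexp background correction and 0.02 with the authors' deposited table, so the group as a whole had no settled direction. Kcnj6, a G-protein-gated subunit of granule cells, was at -1.55, -1.44, -1.14 and -1.01 in CTRL and -2.51, -1.59 and -2.46 in MDD. MDD replicates 1 and 3 were far below CTRL, and replicate 2 was just below the lowest CTRL pup. Kcnj6 was 1.87-fold lower (log2 -0.90, SE 0.25, adjusted p = 0.0375). The call was lost with quantile normalization (-0.83, adjusted p = 0.0506) and with the trends removed (-0.62, adjusted p = 0.0946).

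The subunits that join Kcnj6 in G-protein-gated channels did not pass. Kcnj3 changed by -0.17 (adjusted p = 0.639) and Kcnj9 by -0.05 (adjusted p = 0.851), where the second Kcnj9 probe gave 0.38. Kcnj10 and Kcnj16, which form the channel that takes up potassium into glia, changed by -0.29 (adjusted p = 0.264) and -0.11 (adjusted p = 0.694). The Kcnj10 probe was dim, at 22.2 to 38.5 processed intensity units, and the 95% interval of its change was -0.71 to 0.12. Kcnj14 had the next smallest p of the group, with -0.34, -0.51, -0.53 and -0.53 in CTRL and -0.85, -0.76 and -0.70 in MDD. Its groups did not overlap, and its change of -0.29 (SE 0.11, adjusted p = 0.0944) did not pass as measured but did with the trends removed (-0.47, adjusted p = 0.0322).

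The two-pore group (Kcnk), the leak channels that hold neurons and glia near the potassium potential, had 12 genes, of which 1 rose, 1 fell and 10 did not pass, with a median of -0.05 (-0.17 with quantile normalization and 0.00033 with the trends removed). Kcnk13, a leak channel known from microglia, had the smallest p of all 79 genes. Its signals were -0.43, -0.48, -0.76 and -0.67 in CTRL and 0.05, 0.05 and -0.15 in MDD. The lowest MDD pup was above the highest CTRL pup, and the MDD pups lay close together. Kcnk13 was 1.48-fold higher (log2 0.57, SE 0.13, adjusted p = 0.0237), and a second, dimmer probe gave 0.67 (adjusted p = 0.104).

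Microglial markers were measured beside Kcnk13, and 7 of their means were higher in MDD and 3 lower. Of 10 measured, 6 rose (Aif1, Csf1r, Tyrobp, Trem2, C1qa and C1qb), against 12.6% of all tested. Cx3cr1 fell (log2 -0.90), against 7.96% of all tested, and 3 did not pass, with a median of 0.66. Their summed linear level was 9.22 to 9.95 in CTRL and 13.1 to 18.1 in MDD. The homeostatic markers P2ry12 and Tmem119 changed by -0.01 and 0.28 and did not pass. The part of microglia in the Kcnk13 result was not tested.

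**Figure D3:**
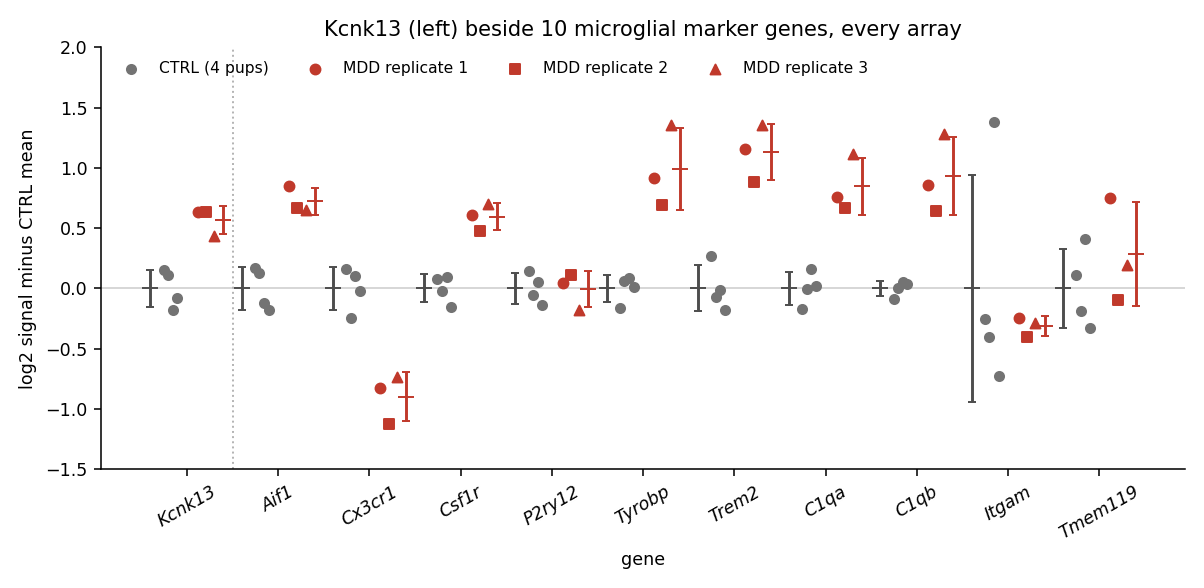
Log2 signal of Kcnk13 (left of the dotted line) and of 10 microglial marker genes, each set to its CTRL mean of 0 (vertical axis, log2), by gene on the horizontal axis. Grey points are CTRL pups, red points MDD pups by replicate, and bars the mean ± SD; Kcnk13 is up by 0.57, Trem2 by 1.13 and C1qb by 0.93, while Cx3cr1 is down by 0.90 (log2 -0.90).

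Kcnk16, better known from pancreas, was at -2.99, -3.23, -3.24 and -3.29 in CTRL and -3.42, -3.83 and -3.74 in MDD. The groups did not overlap, but MDD replicate 1 was close to CTRL. The change of -0.47 (SE 0.14, adjusted p = 0.0496) only just passed, and it held under 2 of 7 other ways of processing. The other Kcnk16 probes on the array did not pass the detection filter. They were well above background on 1 and 0 CTRL arrays and on 0 MDD arrays, so the call rests on a single probe. Adjusted over all 22255 detected probes, in place of genes, Kcnk16 did not pass.

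The acid-sensitive leak channels of granule cells, Kcnk3 and Kcnk9, did not pass. Kcnk9 was at -4.78, -4.34, -4.32 and -4.73 in CTRL and -5.70, -4.65 and -5.32 in MDD, a change of -0.68 (SE 0.25, adjusted p = 0.0817). MDD replicates 1 and 3 were below all CTRL pups and replicate 2 was within their range. Without that replicate the change was -0.97 (adjusted p = 0.0158), and with normexp background correction it was -0.19. Kcnk3 changed by -0.21 (adjusted p = 0.514). Kcnk1, a weakly conducting leak channel, changed by -0.09 (adjusted p = 0.565) as measured and by -0.47 (adjusted p = 0.0273) with quantile normalization, where it passed. Kcnk10 was high in CTRL replicates 1 and 3 with both of its probes (-0.77 and -1.30 for the main probe, against -1.95 and -1.89 in replicates 2 and 4), and its MDD values, from -1.94 to -1.89, were at the level of those lower CTRL pups.

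Calcium-activated channels, which couple calcium entry to the afterhyperpolarization of Purkinje cells, had 7 genes, of which 0 passed by limma and 1 had an unadjusted p under 0.05. The group median was 0.01, and it moved to 0.25 with the trends removed and to 0.15 with quantile normalization. Kcnmb4, the neuronal accessory subunit of the large-conductance channel, was that gene. Its signals were 0.78, 1.10, 1.06 and 0.82 in CTRL and 1.38, 1.32 and 1.29 in MDD. All MDD pups were higher than all CTRL pups, by a change of 0.39 (SE 0.13, adjusted p = 0.0581). It passed with the trends removed (0.46, adjusted p = 0.0431). Kcnma1, the pore of that channel, changed by -0.02 (95% interval -0.43 to 0.40), with -0.36 (adjusted p = 0.0982) and -0.05 for its other probes. Kcnn2, the small-conductance channel of Purkinje cells, changed by -0.32 (95% interval -0.86 to 0.21).

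Of the sodium-activated channels only Kcnt1, which carries a potassium current that follows sodium entry, was detected. Its signals were 1.15, 0.78, 0.86 and 0.99 in CTRL and 0.40, 0.50 and 0.37 in MDD. The highest MDD pup was below the lowest CTRL pup, and the MDD group was narrow. Kcnt1 was 1.44-fold lower (log2 -0.52, SE 0.13, adjusted p = 0.0282). Kcnc1, Kcng2, Kcnk13 and Kcnt1 were the 4 genes that kept their call under all 7 other ways of processing that kept a filter on dim probes. With 1 array left out, Kcnk13 passed in 4 of 7 fits, Kcnc1 and Kcnt1 in 2 of 7 each and Kcng2 in 1 of 7.

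Accessory subunits numbered 12, of which 1 rose, 0 fell and 11 did not pass, with a median of -0.08 (-0.02 with the authors' deposited table). Kcne5, a single-pass subunit that modifies Kcnq channels, was at -3.36, -3.01, -2.93 and -3.34 in CTRL and -2.61, -2.74 and -2.27 in MDD. Every MDD pup was above every CTRL pup. It was 1.53-fold higher (log2 0.62, SE 0.17, adjusted p = 0.0379), and its second probe gave 0.76 (SE 0.15, adjusted p = 0.0171). With the trends removed Kcne5 changed by 0.49 and did not pass (adjusted p = 0.0762).

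Kcnip4, a calcium-binding partner of Kcnd channels, was at -0.45, -0.67, -0.49 and -0.60 in CTRL and -1.31, -0.88 and -0.88 in MDD. Its groups did not overlap, and its change of -0.47 (SE 0.14, adjusted p = 0.0512) fell just short of the threshold. It passed with the authors' deposited table (-0.41, adjusted p = 0.0395), and with the trends removed it changed by -0.19 (adjusted p = 0.297). The other Kcnip genes changed by -0.09 (Kcnip3), -0.06 (Kcnip1) and 0.28 (Kcnip2), and Kcnab1, a cytoplasmic subunit of Kcna channels, by -0.34 (adjusted p = 0.0778). Kcne3 had the lowest change of all 79 genes, -1.02, but was detected on some arrays only and ranged from -5.79 to -3.80 in CTRL (adjusted p = 0.160).

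Several detected probes were available for 20 of the 79 genes. Probes of 12 genes shared a sign, and those of 8 genes did not. Among the 8, no probe passed by limma over 22255 probes (8.03% of them lower and 12.2% higher). The largest disagreements were Kcnq1 (-0.26 and 0.34), Kcnj9 (-0.05 and 0.38) and Kcna7 (0.06 and -0.38), and Kcnn1, whose probes shared a sign, gave 0.01 and 0.42. Of the 103 probes, 4 were higher and 7 lower.

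**Figure D4:**
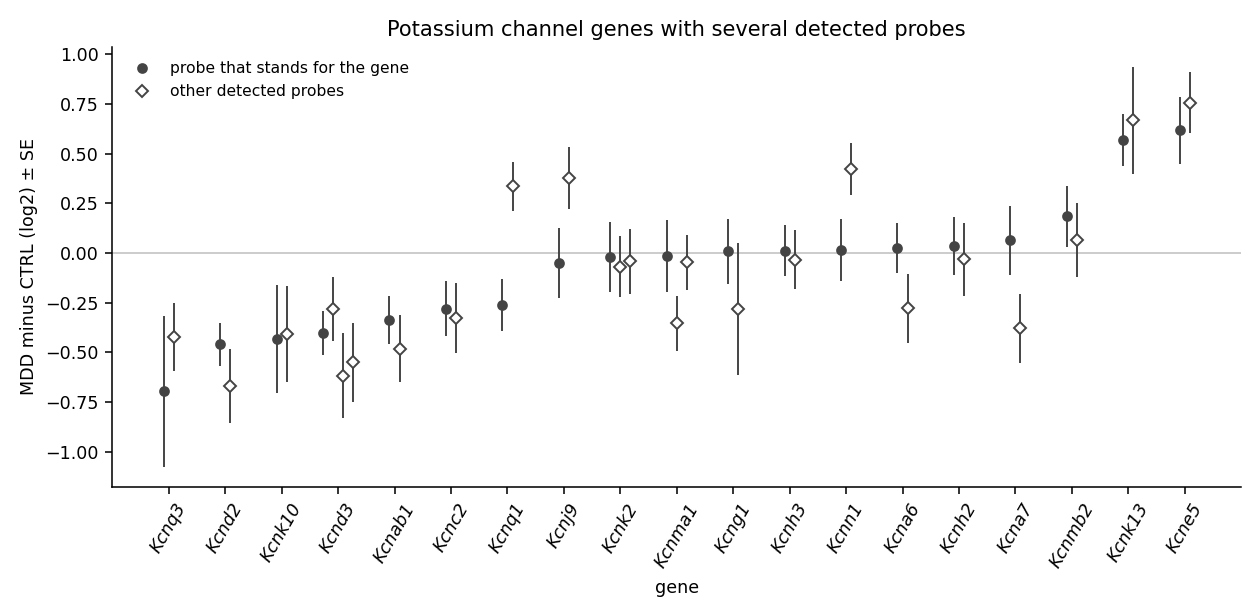
MDD minus CTRL (log2 ± SE, vertical axis) for potassium channel genes described here with several detected probes (horizontal axis). Filled points are the probe with the highest mean signal, which stands for the gene, and open diamonds the other detected probes; all 4 Kcnd3 probes and both Kcnd2 probes are below 0, both Kcne5 and both Kcnk13 probes are above it, and the Kcnq1 probes lie on either side.

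Longer genes had the lower changes. The 40 shorter genes, of 616 to 38069 bp, had a median of -0.03, with 2 that fell and 1 that rose. The 39 longer genes, of 41373 to 1150700 bp, had a median of -0.17, with 5 that fell and 2 that rose. Over all tested, of any length, 7.96% fell and 12.6% rose, and nothing is read from these counts about length. With the trends, fitted over all named genes, removed, the medians were -0.05 and 0.04. Of the 79 genes, 3 were then higher (Kcng2, Kcnk13 and Kcnmb4; background 6.68%) and 5 lower (Kcna1, Kcna4, Kcnc1, Kcnj14 and Kcnt1; background 4.81%), and the family median was -0.01. Of the longer genes, Kcnd2 (-0.31, adjusted p = 0.102), Kcnd3 and Kcnj6 no longer passed, and of the shorter genes Kcne5, the shortest of the 79, and Kcnk16 (-0.36, adjusted p = 0.125) no longer did. The cause of the trend was not tested.

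**Figure D5:**
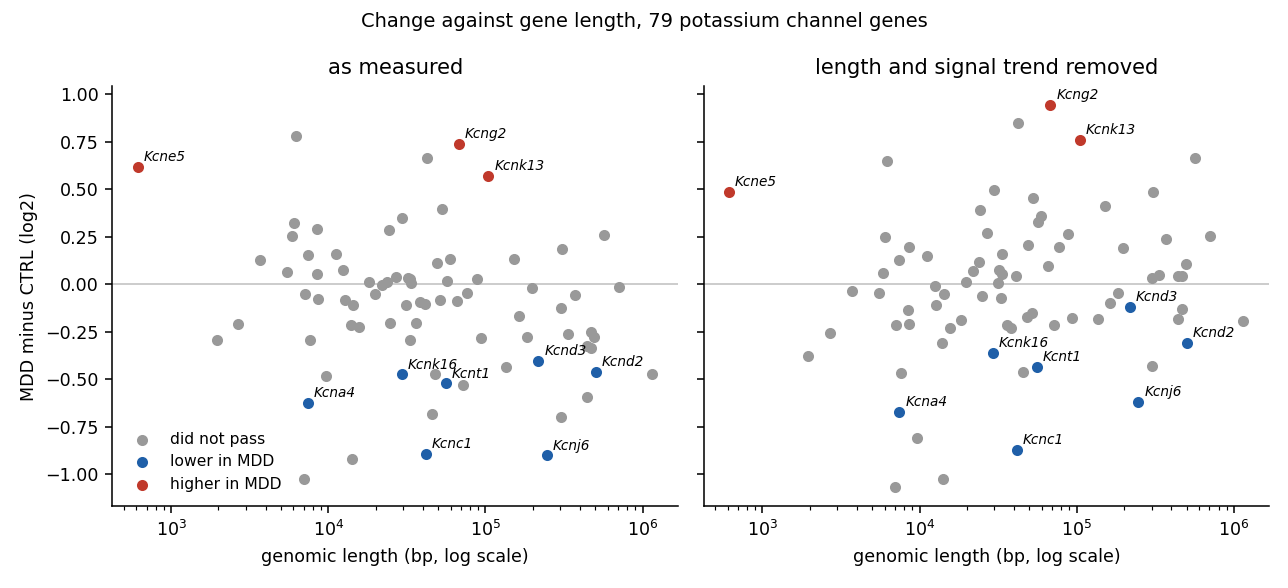
MDD minus CTRL (log2, vertical axes) against genomic length (bp, log scale, horizontal axes) for the 79 potassium channel genes, as measured (left) and after the trends with length and signal were removed (right). Coloured points are the 10 genes that passed as measured (blue lower, red higher); Kcnd3 goes from -0.40 to -0.12 and Kcnd2 from -0.46 to -0.31, while Kcnc1 goes only from -0.89 to -0.87.

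Genes of proteins that anchor or modify potassium channels were examined next to the channels. Of 19 listed, 15 were detected, of which 3 fell (against 7.96% of all tested), 0 rose and 12 did not pass, with a median of -0.35. Dpp10, an auxiliary subunit of Kcnd channels, changed by -0.47 (SE 0.13, adjusted p = 0.0366), whereas its relative Dpp6 changed by 0.05. Lgi1, a secreted protein found in complexes with Kcna1, changed by -0.59 (SE 0.17, adjusted p = 0.0402), and Adam23, one of its receptors, by -0.55 (SE 0.16, adjusted p = 0.0451). A further list held 15 genes of potassium pumps, cotransporters and Hcn channels, all detected. Of these, 1 fell (against 7.96% of all tested), 0 rose and 14 did not pass, with a median of -0.14.

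Markers of the cell types were measured beside these genes. Of all genes tested, 7.96% fell and 12.6% rose. Of 12 granule cell markers, 3 fell (Gabra6, Fat2 and Pax6), 1 rose (Calb2) and 8 did not pass, with a median of -0.40. Their means were lower in MDD for 10 and higher for 2, the bright Cbln1 (log2 0.25) and Calb2 (log2 0.54). Their summed linear level was 118 to 125 in CTRL and 111 to 127 in MDD. Linear sums give most weight to the brightest probes, such as Mbp among oligodendrocyte and Ttr among choroid plexus markers. Of 9 Purkinje cell markers, 3 fell (Calb1 and Gad1 among them), 1 rose (Slc1a6) and 5 did not pass, with sums of 161 to 178 in CTRL and 165 to 185 in MDD. Among other cell types, 1 of 9 astrocyte markers rose (median 0.11, 5 higher and 4 lower in mean), 2 of 10 oligodendrocyte markers fell (sums of 256 to 274 in CTRL and 242 to 370 in MDD), 1 of 10 endothelial and mural markers rose (6.65 to 7.94 and 8.12 to 9.35) and 0 of 8 choroid plexus markers passed (98.6 to 135 and 116 to 275). The astrocyte sum was 239 to 260 in CTRL and 287 to 315 in MDD, and 69.7 to 78.6 and 59.2 to 78.5 without Aldoc, which did not pass (log2 0.37, adjusted p = 0.0545). The part of cell makeup in the changes of Kcnc1, Kcnd2, Kcnj6 and the other neuronal channel genes was not tested.

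The counts rested on few pups. Fewer genes were lower without CTRL replicate 1, 2 or 4 (1 in each case), without CTRL replicate 3 (0) and without MDD replicate 1 or 3 (3 in each case), and 9 were lower without MDD replicate 2. For the higher genes the counts were 1 without CTRL replicate 1, CTRL replicate 2 or MDD replicate 3, 0 without CTRL replicate 3, CTRL replicate 4 or MDD replicate 1, and 3 without MDD replicate 2. The counts over all tested moved too. Lower genes numbered 1592 with all arrays, 509, 613, 356 and 229 without CTRL replicates 1 to 4, and 595, 2372 and 914 without MDD replicates 1 to 3. Higher genes numbered 2526 with all arrays, 1355, 1342, 1066 and 783 without CTRL replicates 1 to 4, and 1695, 2904 and 1737 without MDD replicates 1 to 3. All 10 genes kept their direction in each of these fits. On the slide, 3 CTRL arrays were in row 1, and the fourth CTRL array and all 3 MDD arrays in row 2. With row as a block, which leaves MDD against CTRL replicate 4 alone, 0 of the 79 genes passed by limma (10 at an unadjusted p under 0.05, or 12.7%, against 20.4% of all tested), the 10 genes kept their direction, and the family median was 0.02.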

How the data were processed

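Total RNA of 4 CTRL and 3 MDD cerebella was measured with 1 dye (Cy3) on Agilent arrays of design 028279, per the labels and file headers. The deposited scanner tables hold linear intensities made with Feature Extraction 10.7.3.1 on a grid built on rn4, per the file headers, with a processed signal that is background-subtracted and not normalized between arrays. Their other deposited columns are scores of 0 or 1 that the scanner software gives each spot (well above background, outlier). A deposited table by the authors holds normalized intensities on a linear scale, with columns that show the group only. For its normalization, no method is given in the sources used here.

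The processed signal was divided by the 75th percentile of its array (1136 to 2085 intensity units) and taken to log2, without control and outlier spots, and spots of a probe were averaged. A probe counted on an array when at least 50% of its spots were well above background. Symbols came from matching unversioned accessions to the RefSeq table of GRCr8 (18355 of 30367 probes, 15443 genes). The probe with the highest mean stood for a gene. MDD was tested against CTRL in R 4.3.3 using limma 3.58.1 (two-sided lmFit and eBayes fits, 5 residual degrees of freedom, 8.40 with the prior), adjusted over 19991 genes and unnamed probes with a threshold of 0.05, and the code was tested on simulated data.

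The other settings tried were scaling by the median, quantile normalization, normexp with an offset of 50 (on median spot signals, since the tables held no mean spot signal), the authors' table, no filter or a filter on all 7 arrays, the mean over probes, removal of length and signal trends (a spline with 4 degrees of freedom per array), leaving out each array, and blocks for replicate number and slide row. Genes described are those that passed, the 2 smallest p in groups with fewer, members known in cerebellum, members with disagreeing probes and listed partners that passed; others were named after their values were seen (Kcnb2, Kcnk10, Kcne3, Kcnab1, Kcnq1, Kcnn1, Kcna7 and relatives of named genes). Members and lists were chosen with earlier results of these data known. Results of a few genes that these rules cover are left out of the text and of the figures that print gene names, and counts and medians include all 79.

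The replicate numbers were checked for pairing. Same-numbered deviations correlated at 0.09, -0.18 and 0.22, and those of other numbers at -0.23 to 0.15. The arrays were not treated as pairs, although so few correlations cannot exclude pairing.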

Additional observations from a re-analysis of the deposited data

Results flagged for a closer look

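In the CTRL group, 2 genes of the 79 had 1 pup set apart from the other 3 by more than Dixon's 95% critical value, which chance exceeds in about 1 of 20 groups. Kcnj14, an inward rectifier of neurons, was at -0.3374 in CTRL replicate 1, against -0.5312 to -0.5059 in the other CTRL pups. That value is the one farthest from MDD, and without this pup the change of Kcnj14 was -0.25 (limma, adjusted p = 0.198). Kcnip1, a calcium-binding partner of Kcnd channels, was at -1.348 in CTRL replicate 1, against -1.741 to -1.708. CTRL replicate 1 also had the highest median of the 79 genes among the 7 arrays, 0.07, where the others ranged from -0.24 to 0.03.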

How the results depend on the processing

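Of all genes and probes, 4118 passed, and 1597 did without the filter on dim probes, 1374 of named genes with length and signal trends removed, and 1012 to 5276 with 1 array left out. Among potassium channel genes, 3 were higher and 7 lower. Without the filter 0 were higher and 0 lower by limma (19 of 90 at an unadjusted p under 0.05, or 21.1%, against 27.1% of all tested), with the same log2 changes and adjusted p from 0.0561 (Kcnk13) to 0.0990 (Kcnk16). With normexp 3 were higher and 4 lower. With 1 array left out, 0 to 3 were higher and 0 to 9 lower, and of the probes 1 to 14 passed, against 11 with all arrays and 1 without the filter. With slide row as a block 1 of all genes, 0 higher genes, 0 lower genes and 0 probes passed (unadjusted p under 0.05 for 10 members, 13 member probes and 20.4% of all tested). With the replicate block, 0 genes in all (6222 at an unadjusted p under 0.05, or 31.1%), 0 higher members, 0 lower members (17 unadjusted, or 21.5%) and 0 member probes (24 unadjusted) passed. The block leaves out CTRL replicate 4. The labels give no link between arrays of the same number, and the correlations cannot exclude one. MDD replicate 3 alone correlated best with its own number. The family median of -0.08 was -0.00375 with the authors' deposited table, -0.0114 with trends removed, 0.0215 with the slide row block and -0.11 to -0.03 with 1 array left out. The filter, the blocks and the arrays left out change the genes or samples fitted. Removal of the trends limits the fit to named genes and alters their values. The cause of these shifts was not tested. All 10 called genes kept their sign in 17 of 17 alternatives, and uncalled named genes changed sign in 23 cases. The number of arrays limits precision, and for dim probes such as Kcna4, Kcnk9 and Kcnj10 the signal over background does.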
